A study of Mus musculus with 30 samples.

Results

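The 10 genes described here are the output genes and repressors of the circadian clock, Nr1d1, Nr1d2, Per1, Per2, Per3, Cry1, Dbp, Tef, Bhlhe40 and Bhlhe41. They were chosen by name, as the rows of a table of 38561 genes whose Ensembl mouse identifier carries one of these symbols. The rule itself used no measured value, but the members were chosen with earlier results of these data known. Shares of members called, set beside those of all genes, are therefore a description. All 10 were found and all 10 passed the filter on low counts that left 14438 genes for testing. The samples are RNA of adipose-derived stem cells, fibroblast-like precursors of fat tissue, from male C57BL6/J mice, with 1 library per mouse. The aged obese group held 6 mice of 52 weeks, the aged lean group 8 mice of 52 weeks, the young obese group 8 mice of 20 weeks and the young lean group 8 mice of 20 weeks. Obese mice had eaten a lard-based diet with 60% of its energy from fat since weaning, and lean mice a control chow. The aged obese mice had been fed this way for longer than the young obese ones, and among obese mice these 2 differences cannot be told apart. Of 12 aged obese mice bought, 8 were alive at 360 days, so this group holds survivors. The cells came from inguinal fat, were sorted for Sca-1 and CD34 and against CD31, CD45 and Ter119, and were grown to passage 2 before RNA was taken. The mice were kept in 12 hours of light and 12 of dark. The hour at which cells were collected and the time since their last change of medium are not given in the sources used here, and each mouse gives 1 collection, so the values are levels at that moment and not rhythms.

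In mammals the clock is a feedback loop of transcription in nearly every cell, fibroblasts and fat precursors included. CLOCK and BMAL1 (the product of Arntl) bind E-box elements and switch on the Per, Cry, Nr1d, Dbp and Bhlhe40/41 genes. The PER and CRY proteins then block CLOCK and BMAL1, the REV-ERB receptors made from Nr1d1 and Nr1d2 repress Arntl and Cry1, and DEC1 and DEC2, made from Bhlhe40 and Bhlhe41, compete at E-boxes. DBP and TEF carry the rhythm to target genes with a D-box, Per genes among them. In fat cells REV-ERB and DEC proteins also act on lipid metabolism and on differentiation.

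Letter matches to such elements can be seen in front of some of the members themselves. RefSeq (GRCm38.p6) gave start sites for 8 of the 10 members, Per1 and Tef with 2 starts each. Per2 and Bhlhe40 had no entry. The 250 bases before the start are printed for 3 members called higher in aged obese than in young lean libraries (Nr1d1, Cry1, Bhlhe41) and for 3 that were not called (Per1, Per3, Tef). They show where matches to such elements stand close to the start, and binding was not measured. Capitals mark a match on either strand to an E-box (CACGTG), its variant (CACGTT), a D-box (TTATGTAA or TTACGTAA), a cAMP response element (TGACGTCA) or a nuclear receptor half-site (AGGTCA). All sequences run 5′ to 3′ on the strand of the gene, and the first of 2 starts is shown for Per1 and Tef. The windows are chr11:98775378-98775627 on the minus strand for Nr1d1, chr10:85185055-85185304 on the minus strand for Cry1 and chr6:145865421-145865670 on the minus strand for Bhlhe41. They are chr11:69098699-69098948 on the plus strand for Per1, chr4:151044666-151044915 on the minus strand for Per3 and chr15:81802423-81802672 on the plus strand for Tef.
Nr1d1: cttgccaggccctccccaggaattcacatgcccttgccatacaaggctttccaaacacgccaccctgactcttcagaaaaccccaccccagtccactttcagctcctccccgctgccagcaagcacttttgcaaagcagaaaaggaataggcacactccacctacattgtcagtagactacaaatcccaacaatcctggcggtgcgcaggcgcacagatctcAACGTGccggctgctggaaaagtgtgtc
Cry1: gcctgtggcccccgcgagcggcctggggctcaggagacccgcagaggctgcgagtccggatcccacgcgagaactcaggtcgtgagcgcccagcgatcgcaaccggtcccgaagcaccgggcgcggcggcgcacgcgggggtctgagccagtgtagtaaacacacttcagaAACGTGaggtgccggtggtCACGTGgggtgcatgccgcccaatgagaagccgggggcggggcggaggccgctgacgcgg
Bhlhe41: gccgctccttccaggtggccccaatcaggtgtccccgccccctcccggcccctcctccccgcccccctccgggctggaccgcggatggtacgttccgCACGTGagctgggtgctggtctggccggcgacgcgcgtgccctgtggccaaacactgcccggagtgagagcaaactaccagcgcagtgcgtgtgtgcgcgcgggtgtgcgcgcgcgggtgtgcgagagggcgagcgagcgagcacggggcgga
Per1: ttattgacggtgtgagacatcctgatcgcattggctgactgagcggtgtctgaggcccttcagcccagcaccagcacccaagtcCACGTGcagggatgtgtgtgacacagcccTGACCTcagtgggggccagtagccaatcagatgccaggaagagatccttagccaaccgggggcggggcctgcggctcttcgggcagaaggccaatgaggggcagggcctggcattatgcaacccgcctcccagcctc
Per3: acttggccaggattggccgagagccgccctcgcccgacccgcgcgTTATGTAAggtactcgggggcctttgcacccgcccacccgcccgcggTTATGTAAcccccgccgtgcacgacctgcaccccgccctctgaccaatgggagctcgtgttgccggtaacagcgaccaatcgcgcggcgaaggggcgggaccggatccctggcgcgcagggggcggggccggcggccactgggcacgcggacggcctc
Tef: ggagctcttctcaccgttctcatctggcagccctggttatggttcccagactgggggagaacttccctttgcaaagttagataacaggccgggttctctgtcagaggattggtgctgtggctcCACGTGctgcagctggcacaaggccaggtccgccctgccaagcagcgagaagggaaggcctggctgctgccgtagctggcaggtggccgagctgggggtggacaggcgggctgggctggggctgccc

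The E-box stood before Per1 (166 bases before the start, counted to the first base of the match), Cry1 (60 bases), Bhlhe41 (153 bases) and both starts of Tef (127 and 138 bases). It was in 6.02% of the 32851 promoter windows of this length in the RefSeq table. The E-box variant stood before Cry1 (79 bases) and Nr1d1 (28 bases), and in 3.85% of all windows. Per3 held the D-box with T in the middle at both 205 and 158 bases before its start, and 0.819% of all windows held it at least once. The half-site was found before Nr1d2 (77 bases) and Per1 (137 bases), and in 14% of all windows. No window of a member held the D-box with C (0.113% of all windows) or the cAMP response element (1.55% of all windows), and none of the searched motifs was found before Dbp or the second start of Per1. None of these motifs overlapped another in the members' windows. The match is to letters only, and these data do not measure binding.

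**Figure D1:**
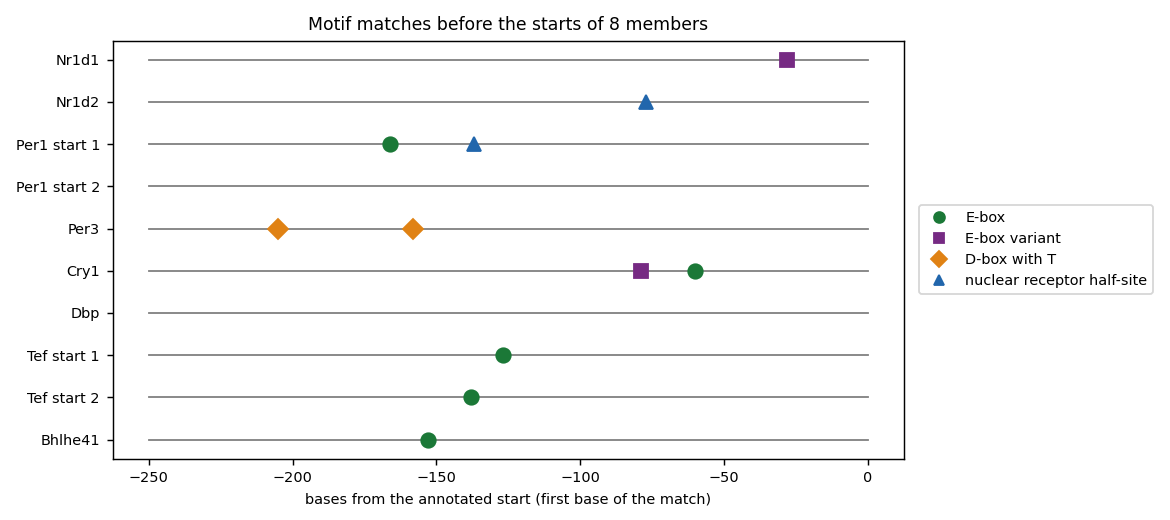
Motif matches in the 250 bases before the RefSeq starts of 8 members, with the distance from the start in bases on the x axis and 1 line per start on the y axis. Symbols mark the first base of a match to an E-box, the E-box variant, the D-box with T or the nuclear receptor half-site. Per3 is the member with D-boxes, at 205 and 158 bases before its start, and Cry1 carries an E-box and a variant, at 60 and 79 bases.

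Counts in genes ranged from 30597765 to 47970233 per library. CPM below are counts scaled to the library total with TMM factors. The lowest count of any member in any library was 61 (Bhlhe41). Libraries of a group spread most among aged obese mice, with a median SD of log2 CPM of 0.383, against 0.298 in aged lean, 0.264 in young obese and 0.292 in young lean libraries. Pairs of libraries within a group differed by a chi-square per gene of 6.34 to 476. The closest were young obese 19, 20 and 21 (6.34 to 8.05) and young obese 1 and 2 (8.23), and libraries as close as these may not be independent. Of the sorted markers, Ly6a (Sca-1) averaged 736 ± 368 CPM in aged obese, 916 ± 153 in aged lean, 724 ± 79.6 in young obese and 926 ± 210 in young lean libraries (SD). Cd34 was low and uneven, from 0.193 to 37.9 CPM in aged obese libraries and from 0.911 to 27.9 CPM in young obese libraries. Summed over the marker lists, 6 endothelial genes gave 1.28 to 20.8 CPM in aged obese and 6.02 to 15 CPM in young lean libraries, and 6 immune genes gave 15.3 to 25.3 CPM in aged obese and 11.7 to 33.7 CPM in young lean libraries. Ptprc (CD45) was at 0 in all aged libraries and Hbb-bs, a globin gene, at 0 in all libraries. Mural cell genes summed to 3117 to 7180 CPM in aged obese and 2657 to 5441 CPM in young lean libraries. Of the 6 mural genes tested 2 were called higher between these groups, where 5.62% of all genes tested were called higher. Mature adipocyte genes summed to 41 to 69.6 CPM in aged obese and 26.1 to 104 CPM in young lean libraries. Their part in the results was not tested. In such bulk samples, fewer cells of a type and less RNA per cell cannot be told apart.

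Levels between genes can be compared per length. On the scale of CPM per kilobase of exon, with lengths from GENCODE M21, Bhlhe40 was the highest member at 33.6 ± 22.4 (mean and SD over 30 libraries). Nr1d1 followed at 11.6 ± 4.84, Per1 at 7.93 ± 5.46, Tef at 6.09 ± 0.929 and Nr1d2 at 5.7 ± 1.74. Dbp reached 3.24 ± 1.06, Cry1 2.6 ± 1.14, Per2 1.92 ± 1.27, Per3 1.71 ± 0.453 and Bhlhe41 0.76 ± 0.752 CPM per kilobase. Neighbours in this order differed by less than the larger of their SDs, except Nr1d2 from Dbp and Per3 from Bhlhe41. The 2 DEC genes stood at opposite ends, and the output activators Dbp and Tef in the middle.

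Among the comparisons the members differed most often between aged obese and young lean libraries, which differ in both age and diet. Here 6 of the 10 members were higher, namely Nr1d1, Nr1d2, Per2, Cry1, Bhlhe40 and Bhlhe41, and 0 were lower (edgeR's quasi-likelihood test, Benjamini-Hochberg adjusted p below 0.05). Of all genes tested 10.3% were called in this comparison, 5.62% as higher and 4.65% as lower. The 4 members that did not pass were Per1, Per3 and the output activators Dbp and Tef. The median log2 fold change of the members was 0.87, against -0.01 over all genes tested. For Nr1d1, Cry1 and Bhlhe40 the CPM ranges of the 2 groups did not overlap, which held for 1.04% of all genes tested. Aged obese 15 and 17 and aged lean 16 stand apart in clock genes, and a fit without them was chosen after their values were seen. Since aged obese 15 and 17 hold the highest aged obese values of Cry1, Per2 and Bhlhe41, leaving them out lowers these changes by construction. In that fit 1 of 10 members, Nr1d1, was called, and the share of all genes called was also lower, 3.63%, with 2.56% as higher.

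**Figure D2:**
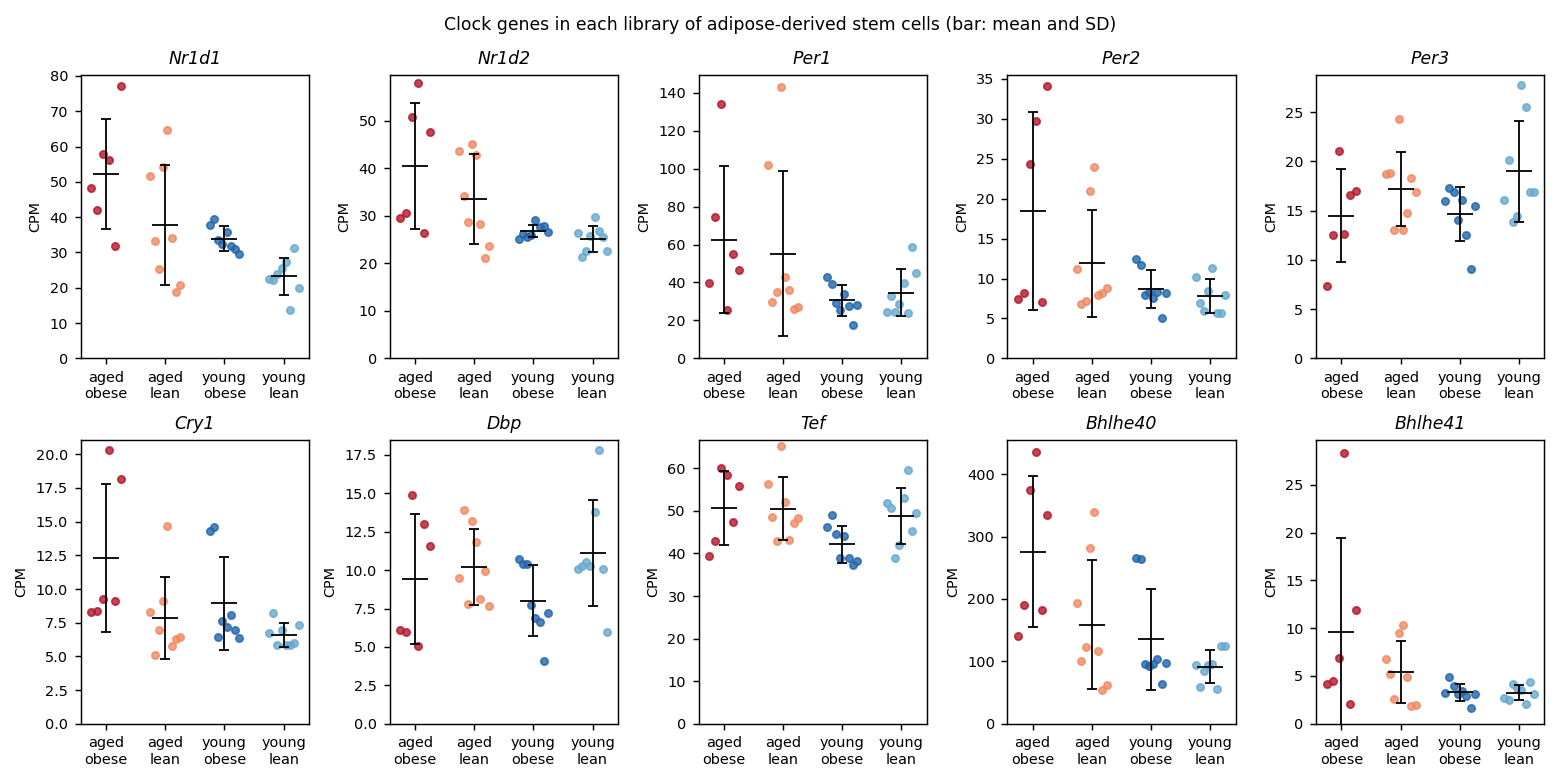
CPM of the 10 members on the y axis (each panel with its own scale from 0) in aged obese, aged lean, young obese and young lean libraries, 1 point per mouse with the mean and SD as black bars. Nr1d1, Cry1 and Bhlhe40 lie higher in all 6 aged obese libraries than in any young lean library, while Per2 is high in 3 aged obese libraries, up to 34.1 CPM, and near the young level in the other 3.

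Both REV-ERB genes were called. Nr1d1 (ENSMUSG00000020889), which encodes REV-ERB alpha, had 31.8, 52.2 and 77.2 CPM (lowest, median, highest) in aged obese libraries, 18.8, 33.5 and 64.7 CPM in aged lean, 29.5, 32.9 and 39.6 CPM in young obese and 13.6, 23.2 and 31.3 CPM in young lean libraries. All 6 aged obese libraries lay above all 8 young lean libraries, and the other pairs of groups overlapped. Its log2 fold change between aged obese and young lean libraries was 1.16 ± 0.22 (SE, adjusted p = 0.00429, edgeR), and it stayed past the threshold when any 1 of the 30 libraries was left out (log2 fold change 1.02 to 1.27). Without aged obese 15 and 17 and aged lean 16 it was 0.96 (adjusted p = 0.0224). Nr1d2 (ENSMUSG00000021775), which encodes REV-ERB beta, had 26.4, 39.2 and 57.9 CPM in aged obese libraries, 21.2, 31.5 and 45.1 CPM in aged lean, 25.1, 26.4 and 29.1 CPM in young obese and 21.4, 25.7 and 29.8 CPM in young lean libraries. Its 6 highest libraries were all aged (aged obese 14, 15 and 17, aged lean 11, 15 and 16, from 42.9 CPM upwards), and the next highest was at 34.2 CPM. Nr1d2 rose in aged obese against young lean libraries by a log2 fold change of 0.69 ± 0.16 (adjusted p = 0.011). Without the 3 libraries that stand apart it was 0.47 and did not pass (adjusted p = 0.101).

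Of the period and cryptochrome repressors, Per2 and Cry1 were called and Per1 and Per3 were not. Per2 (ENSMUSG00000055866) had 7.04, 16.2 and 34.1 CPM in aged obese libraries, 6.78, 8.52 and 24 CPM in aged lean, 5.08, 8.25 and 12.5 CPM in young obese and 5.74, 7.49 and 11.3 CPM in young lean libraries. The values fell into separate sets, with aged obese 14, 15 and 17 and aged lean 15 and 16 at 21 CPM or more and the other 25 libraries at 12.5 CPM or less. The log2 fold change of aged obese against young lean libraries was 1.24 ± 0.34 (adjusted p = 0.0213). When only these 2 groups were fitted it was 1.27 and did not pass (adjusted p = 0.066). It was 1.05 without aged obese 15 (adjusted p = 0.0741), 0.97 without aged obese 17 (adjusted p = 0.0826) and 0.60 without both and aged lean 16 (adjusted p = 0.245).

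Cry1 (ENSMUSG00000020038) had 8.32, 9.16 and 20.3 CPM in aged obese libraries, 5.1, 6.71 and 14.7 CPM in aged lean, 6.39, 7.4 and 14.6 CPM in young obese and 5.81, 6.38 and 8.23 CPM in young lean libraries. Aged obese 15 and 17, aged lean 16 and young obese 1 and 2 were at 14.3 CPM or more, and the other 25 libraries at 9.23 CPM or less. Cry1 was higher in all 6 aged obese than in all 8 young lean libraries, by a log2 fold change of 0.89 ± 0.24 (adjusted p = 0.0211). The lowest aged obese library, at 8.32 CPM, was only just above the highest young lean library, at 8.23 CPM. The call was lost without aged obese 15 (0.69, adjusted p = 0.0897) or aged obese 17 (0.74, adjusted p = 0.0722), and without both and aged lean 16 the change was 0.42 (adjusted p = 0.208).

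Per1 (ENSMUSG00000020893), the period gene that also answers acutely to serum and cAMP, had 25.3, 50.8 and 134 CPM in aged obese libraries, 25.9, 35.5 and 143 CPM in aged lean, 17.5, 28.8 and 43 CPM in young obese and 23.7, 30.6 and 58.6 CPM in young lean libraries. Aged obese 14, aged lean 11 and aged lean 15 were at 102 CPM or more and the other 27 libraries at 74.7 CPM or less, and all groups overlapped. Its log2 fold change of aged obese against young lean libraries, 0.86 ± 0.36, did not pass (adjusted p = 0.12). Per3 (ENSMUSG00000028957) had 7.34, 14.6 and 21.1 CPM in aged obese libraries, 13, 17.6 and 24.3 CPM in aged lean, 9.11, 15.7 and 17.3 CPM in young obese and 13.8, 16.9 and 27.8 CPM in young lean libraries. All groups overlapped, and the log2 fold change of aged obese against young lean libraries was -0.38 ± 0.19 (adjusted p = 0.194).

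The output activators showed no called change between aged obese and young lean libraries. Dbp (ENSMUSG00000059824), a PAR bZIP factor whose transcript is among the strongest cycling ones in many tissues, averaged 9.43 ± 4.23 CPM in aged obese, 10.2 ± 2.45 in aged lean, 8.02 ± 2.34 in young obese and 11.1 ± 3.44 in young lean libraries (SD, n = 6, 8, 8 and 8). Its log2 fold change of aged obese against young lean libraries was -0.23 ± 0.25 (adjusted p = 0.577, edgeR). Tef (ENSMUSG00000022389), a further factor of this family, averaged 50.7 ± 8.6 CPM in aged obese, 50.5 ± 7.39 in aged lean, 42.2 ± 4.35 in young obese and 48.8 ± 6.52 in young lean libraries, and its log2 fold change in this comparison was 0.05 ± 0.11 (adjusted p = 0.787, edgeR). Hlf, the third PAR factor, was below the filter at 0.174 ± 0.119 CPM in aged obese and 0.0967 ± 0.0949 CPM in young lean libraries. Nfil3, which encodes the repressor at the same D-boxes, had 70.6 ± 29.9 CPM in aged obese and 69.2 ± 9.01 CPM in young lean libraries and a log2 fold change of 0.03 ± 0.24 (adjusted p = 0.955).

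Between aged obese and young lean libraries the DEC repressors had the largest fitted fold changes of the members, although that of Bhlhe41 rested on aged obese 15. Bhlhe40 (ENSMUSG00000030103), which encodes DEC1, had 141, 263 and 436 CPM in aged obese libraries, 54.5, 120 and 339 CPM in aged lean, 63.7, 96.7 and 265 CPM in young obese and 56, 93.8 and 125 CPM in young lean libraries. Aged obese 14, 15 and 17, aged lean 15 and 16 and young obese 1 and 2 were at 264 CPM or more and the other 23 libraries at 194 CPM or less, yet even the lowest aged obese library was above every young lean library. The log2 fold change between these groups was 1.59 ± 0.38 (adjusted p = 0.0109). It stayed past the threshold with any 1 library left out and was 1.29 (adjusted p = 0.0597) without aged obese 15 and 17 and aged lean 16. Bhlhe41 (ENSMUSG00000030256), which encodes DEC2, had 2.04, 5.69 and 28.3 CPM in aged obese libraries, 1.88, 5.06 and 10.3 CPM in aged lean, 1.68, 3.2 and 4.9 CPM in young obese and 2.01, 3.33 and 4.35 CPM in young lean libraries. Aged obese 15, at 28.3 CPM, was far above the next library, aged obese 17 at 11.9 CPM, and the groups overlapped. The log2 fold change of 1.56 ± 0.42 between aged obese and young lean libraries (adjusted p = 0.02) was 0.85 without aged obese 15 (adjusted p = 0.159) and 0.44 without aged obese 15 and 17 and aged lean 16 (adjusted p = 0.46). It was 0.74 by voom with quality weights (adjusted p = 0.248) and 1.58 when only these 2 groups were fitted (adjusted p = 0.0665).

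**Figure D3:**
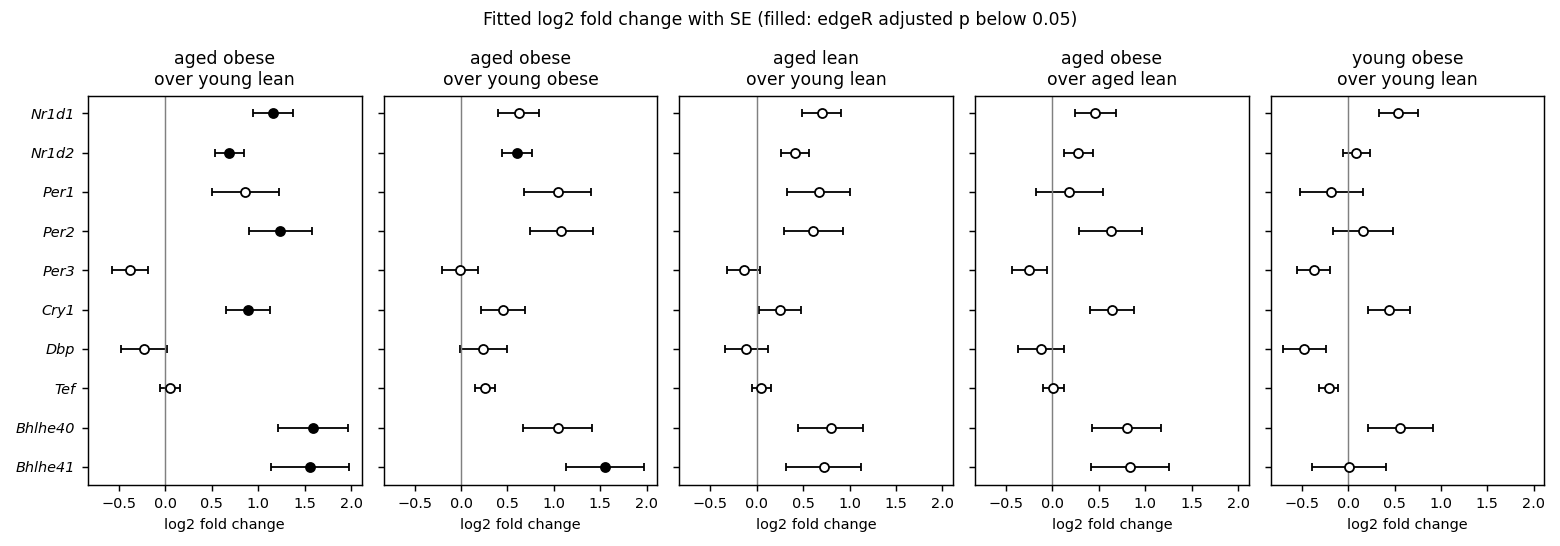
Fitted log2 fold change (x axis) with its SE for the 10 members (y axis) in 5 comparisons, the first-named group over the second, with filled points for an edgeR adjusted p below 0.05. Filled points are 6 for aged obese over young lean, 2 for aged obese over young obese and 0 in the other panels, and Per3, Dbp and Tef lie near or below 0 in most panels.

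The effect of age was compared within each diet. In obese mice 2 of 10 members were higher in aged than in young libraries, Nr1d2 with a log2 fold change of 0.60 ± 0.16 (adjusted p = 0.0419) and Bhlhe41 with 1.55 ± 0.42 (adjusted p = 0.0418), where 3.07% of all genes tested were called, 1.87% as higher and 1.2% as lower. For Nr1d2, 5 of 6 aged obese libraries lay above all young obese libraries, and for Bhlhe41 3 of 6 did (aged obese 14, 15 and 17). Per2 (1.08 ± 0.34, adjusted p = 0.0717), Per1 (1.04 ± 0.36, adjusted p = 0.103), Bhlhe40 (1.04 ± 0.37, adjusted p = 0.116) and Nr1d1 (0.62 ± 0.22, adjusted p = 0.116) did not pass, and Per3 was at -0.01 ± 0.19. Without aged obese 15 the change of Nr1d2 was 0.47 (adjusted p = 0.17), that of Bhlhe41 0.84 (adjusted p = 0.312) and 0 members passed. Other libraries mattered as well. The call of Nr1d2 was lost in 11 and that of Bhlhe41 in 9 of the 30 fits that left out 1 library, for both also without young obese 1 or any of young obese 18 to 23, and the count of calls ran from 0 to 4. Both calls were also lost without a filter on low counts (adjusted p = 0.0601 for Nr1d2 and 0.0557 for Bhlhe41) and when only these 2 groups were fitted (adjusted p = 0.0725 and 0.0962).

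In lean mice 0 of 10 members were called between aged and young libraries, as were 0% of all genes tested. The test by DESeq2 called 0 members as well, and 8 genes in all. Nr1d1 had a log2 fold change of 0.70 ± 0.21 (adjusted p = 0.85), with 6 of 8 aged lean libraries above the young lean median. Nr1d2 (0.41 ± 0.15) and Bhlhe40 (0.80 ± 0.35) did not pass either, both with an adjusted p of 0.85. The median log2 fold change of the members was 0.51, against -0.02 over all genes tested. The comparisons of aged obese with young lean and of aged lean with young lean share the young lean libraries.

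The effect of obesity was compared within each age. In young mice 0 of 10 members were called, where 8.83% of all genes tested were. By DESeq2 the count was 0 and by voom with quality weights 2. Nr1d1 was higher than the young lean median in 8 of 8 young obese libraries, with a log2 fold change of 0.54 ± 0.21 (adjusted p = 0.0919). It passed when only these 2 groups were fitted (0.55, adjusted p = 0.0197). Negative values that did not pass were those of Dbp at -0.47 ± 0.23 (adjusted p = 0.179), Per3 at -0.37 ± 0.18 (adjusted p = 0.173) and Tef at -0.21 ± 0.10 (adjusted p = 0.164). For Tef, 0 of 8 young obese libraries lay above the young lean median.

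In aged mice 0 of 10 members were called between obese and lean libraries, where 0.222% of all genes tested were. DESeq2 called 0 and voom 1 (Bhlhe40). Cry1 had a log2 fold change of 0.64 ± 0.24 (adjusted p = 0.245), with 6 of 6 aged obese libraries above the aged lean median. Without aged lean 16 it was 0.84 and passed (adjusted p = 0.0422). Bhlhe40 had 0.80 ± 0.37 (adjusted p = 0.368). The effect of obesity in aged minus that in young mice was called for 0 of 10 members, where 0.00693% of all genes tested were, and 0 members had an unadjusted p below 0.05. DESeq2 also called 0. The largest such difference was 0.83 ± 0.58 on the log2 scale for Bhlhe41 (adjusted p = 0.695).

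Much of the spread of the members lay between libraries of the same group, and it followed more than 1 pattern. In aged obese 14, aged lean 11 and aged lean 15, Per1 was high (134, 102 and 143 CPM), and so were Usp2, a deubiquitinase that acts on clock proteins (76.3, 33.8 and 51.1 CPM), and Cry2, the other cryptochrome gene (88.5, 58.3 and 89.6 CPM). In aged obese 15 and 17 and aged lean 16, by contrast, Per1 was at 25.3, 46.6 and 43.1 CPM while Cry1 was high (20.3, 18.2 and 14.7 CPM). Arntl, the partner gene of Clock, was at 73.1, 74.2 and 72.5 CPM there, against at most 43.1 CPM in the other 27 libraries. Csnk1d, a kinase of the PER proteins, was at 229, 232 and 231 CPM, against at most 188 CPM elsewhere. Young obese 1 and 2 held another combination, with Cry1 at 14.3 and 14.6 CPM, Bhlhe40 at 265 and 264 CPM, Npas2, a relative of Clock, at 13.4 and 13.8 CPM and Clock itself at 51.9 and 56 CPM. Per2 was high in both aged sets, yet at 11.2 CPM in aged lean 11.

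These 8 libraries were also the highest on the first principal component of all genes. On this component, which held 31.6% of the variance, aged obese 14, 15 and 17 were at 37.48, 61.1 and 67.8, aged lean 11, 15 and 16 at 22.96, 52.23 and 54.99, and young obese 1 and 2 at 38.95 and 38.07. The other 22 libraries ran from -69.82 (aged obese 10) to 18.22 (aged obese 16), with no wide gap below aged lean 11. Summed over 15 proliferation genes, aged obese 14, 15 and 17 had 515, 463 and 327 CPM, aged lean 11, 15 and 16 had 476, 289 and 336 CPM, and young obese 1 and 2 had 308 and 296 CPM. The median of that sum was 517 CPM in aged obese, 610 in aged lean, 1062 in young obese and 680 in young lean libraries. Summed over 18 immediate early genes, which respond within minutes to serum and other stimuli, aged obese 14 had 5987 CPM and aged lean 15 had 4649 CPM, but aged lean 11 had 2627 CPM. Young obese 1 and 2 had 5676 and 4456 CPM and the highest young lean library had 4362 CPM. Between groups the median sum was 2588 CPM in aged obese and 1567 CPM in young lean libraries. Summed over 9 adipose stromal genes, aged obese 14, 15 and 17 had 63772, 50995 and 65366 CPM, aged lean 11, 15 and 16 had 37983, 50394 and 50625 CPM, young obese 1 and 2 had 70695 and 66804 CPM, and the young lean median was 41610 CPM. Summed over 13 glucocorticoid response genes, young obese 1 and 2 had 4057 and 3883 CPM and aged lean 16 had 3013 CPM, against a young lean median of 1277 CPM. The part of these differences in the members' levels was not tested.

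**Figure D4:**
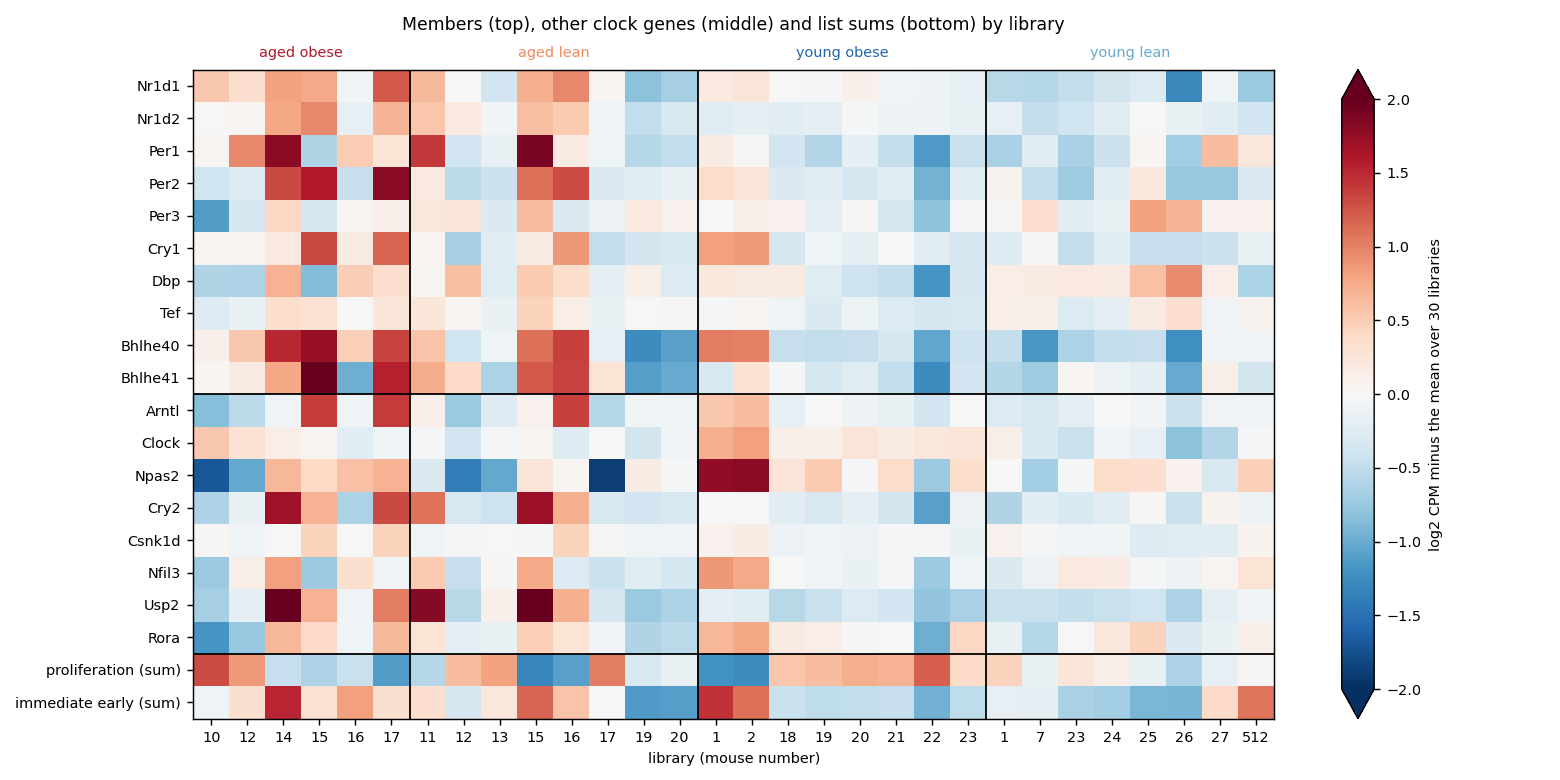
Log2 CPM minus its mean over the 30 libraries (colour, clipped at the ends of the scale) for the members, for 8 other clock genes and for the summed proliferation and immediate early genes (rows), by library (columns, mouse numbers, grouped as aged obese, aged lean, young obese and young lean). Aged obese 15 and 17 and aged lean 16 stand out in Cry1 and Arntl, and aged obese 14 and aged lean 11 and 15 in Per1, Cry2 and Usp2.

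The spread within a group was itself uneven. The SD of Nr1d2 was 13.2 CPM in aged obese, 9.44 in aged lean, 1.33 in young obese and 2.77 in young lean libraries, and that of Per2 was 12.4 CPM in aged obese, 6.72 in aged lean, 2.35 in young obese and 2.1 in young lean libraries. For Tef it lay between 4.35 CPM in young obese and 8.6 CPM in aged obese libraries. A difference in spread between groups was not tested.

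After the mean of each group was subtracted, 27 of the 45 pairs of members were correlated across the 30 libraries (Pearson's r of log2 CPM, permutation test with 100000 resamples, two-sided, adjusted p below 0.05), and all 27 correlations were positive. The weakest of them had an r of 0.44, which 60% of the pairs of members reached. This value was taken from the called pairs, so the 60% are the same 27 pairs by construction. Over all pairs of the 14438 genes tested, 14.2% reached an r of 0.44 and 14% were at -0.44 or below, and all pairs share the same libraries. The permutation shuffled values over all 30 libraries regardless of group. Spread differed between groups and some libraries were very close to each other, so its p-values may be too small. Because Per2, Cry1 and Bhlhe40 fell into separate sets of libraries, no pooled r is given for their pairs. Of the 21 pairs among the other 7 members, 11 passed. Per1 and Nr1d2 also had gaps, with 3 libraries at 102 CPM or more and 6 at 42.9 CPM or more, and were kept in these pairs. On the log scale the gap of Per1 (74.7 to 102 CPM) was about as wide as that of Bhlhe40 (194 to 264 CPM). The choice of members to set apart followed no fixed width of gap, and the count of 11 of 21 depends on it. Without the 2 libraries farthest in Per1, r fell from 0.48 to 0.29 for Per1 and Per3 and from 0.44 to 0.20 for Per1 and Tef. Without the 2 farthest in Nr1d2, r went from 0.63 to 0.67 for Nr1d2 and Tef and from 0.81 to 0.74 for Nr1d2 and Bhlhe41. As 6 libraries lie above the gap of Nr1d2, leaving out 2 cannot show how far r rests on them. Within groups r of Nr1d2 and Tef was 0.88 in aged obese, 0.73 in aged lean, -0.35 in young obese and 0.40 in young lean libraries. For Nr1d2 and Bhlhe41 it was 0.91 in aged obese, 0.94 in aged lean, -0.38 in young obese and 0.02 in young lean libraries. Per3 went with Tef (r = 0.76 and Spearman's rho = 0.76, adjusted p = 7.00e-05 each by the permutation test). For this pair r was 0.71 without the 2 libraries farthest in Per3, and within groups it was 0.75 in aged obese, 0.72 in aged lean, 0.74 in young obese and 0.82 in young lean libraries. For Per3 and Dbp r and rho were 0.72 over all libraries (adjusted p = 7.00e-05 each by the permutation test), and r was 0.67 without the 2 farthest, and within groups 0.78 in aged obese, 0.51 in aged lean, 0.90 in young obese and 0.62 in young lean libraries.

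Nr1d1 went with Bhlhe41 (r = 0.81, adjusted p = 6.00e-05, and rho = 0.86, adjusted p = 7.00e-05, permutation test). Both unadjusted p were 1.00e-05, the smallest that these resamples can give. The r was 0.77 without the 2 libraries farthest in Nr1d1, with within-group values of 0.75 in aged obese, 0.98 in aged lean, 0.64 in young obese and 0.85 in young lean libraries. Nr1d1 and Nr1d2 had an r of 0.75 (adjusted p = 6.00e-05) and a rho of 0.66 (adjusted p = 0.00049, permutation test), and r was 0.68 without the 2 farthest. Within groups r was 0.80 in aged obese and 0.96 in aged lean but -0.27 in young obese and 0.09 in young lean libraries. Pairs that did not pass had an r of 0.05 and a rho of 0.21 for Nr1d1 and Per3 (adjusted p = 0.797 for r and 0.304 for rho, permutation test) and an r of 0.16 and a rho of 0.28 for Nr1d1 and Dbp (adjusted p = 0.453 for r and 0.177 for rho, permutation test).

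**Figure D5:**
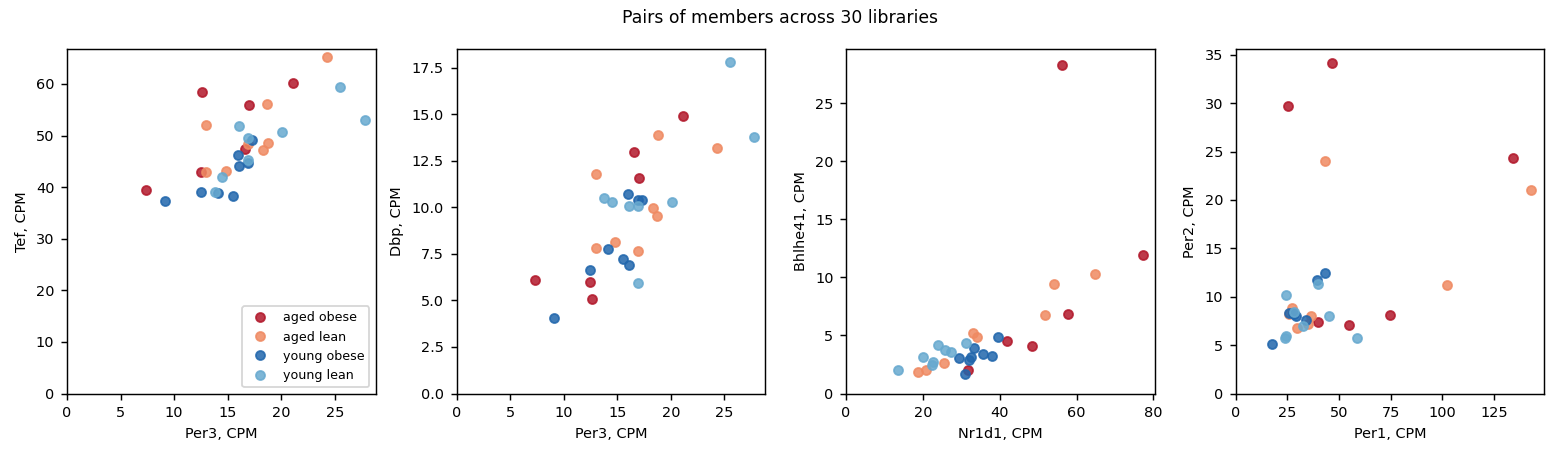
CPM of 4 pairs of members, 1 point per library (30 in all), coloured as aged obese, aged lean, young obese or young lean. The r of log2 CPM of Per3 with Tef and with Dbp is positive in every group, though it was not tested group by group. Bhlhe41 climbs with Nr1d1, with aged obese 15 far above at 28.3 CPM. The 5 libraries with Per2 at 21 CPM or more lie at both low and high Per1.

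The genes most like each member were those with the highest Pearson r of group-centred log2 CPM over the 30 libraries, given as a description. Per1 was most like Fosl2, Nr4a1 and Nfkbia (r = 0.86, 0.82 and 0.82), the first 2 of them transcription factors of the immediate early kind and the third the inhibitor of NF-kB. Nr1d1 was most like Hbegf, which encodes an EGF-family growth factor, Hk2, a hexokinase gene, and Azin1 (0.82, 0.82 and 0.81), and Bhlhe41 like Hk2, Hey1 and Il17ra (0.86, 0.86 and 0.84). Nr1d2 shared Hey1, a repressor downstream of Notch, as its closest gene (0.85). Per3 was most like Cul9, Serhl and Zfp810 (0.89, 0.86 and 0.85), Dbp like Hps1, Jund and Neu1 (0.83, 0.82 and 0.80) and Tef like Nlgn2 and Slc7a2 (0.85 each). For the members with separate sets of libraries, the closest genes were Runx1 for Per2 (0.92), Dcaf10 for Cry1 (0.95) and Smad7, Tcim and Lif for Bhlhe40 (0.94, 0.93 and 0.92), and these values rest on those sets. Per1 and Nr1d2 also had libraries apart from the rest, and how far their values rest on these was not tested. All values share their libraries and scaling.

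The rest of the clock was read from a list of 28 names, which matched 26 genes, 24 of them tested. Between aged obese and young lean libraries 3 of 24 were higher and 0 lower, a share near that of all genes tested (10.3% called), so the count says nothing particular about the list. They were Usp2 (log2 fold change 1.60 ± 0.47, adjusted p = 0.0305), Sfpq, which encodes a cofactor of PER repression (0.44 ± 0.14, adjusted p = 0.0388), and Prkaa1, an AMP kinase subunit gene (0.27 ± 0.08, adjusted p = 0.0348). The activator Arntl did not pass (0.65 ± 0.30, adjusted p = 0.157). It had 15.5, 26.6 and 74.2 CPM (lowest, median, highest) in aged obese and 20.8, 25.6 and 28.2 CPM in young lean libraries. Without aged obese 15 and 17 and aged lean 16, 0 of 24 were called. The median log2 fold change of the list was 0.11.

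Between young obese and young lean libraries, where 8.83% of all genes tested were called, 1 of 24 passed, Clock, with 34, 37.6 and 56 CPM in young obese and 17.9, 26.9 and 34.4 CPM in young lean libraries (log2 fold change 0.61 ± 0.13, adjusted p = 0.0123). Without young obese 1 and 2 the count was 0, and the share of all genes called was also lower, 0.993%. In the other 4 comparisons 0 of 24 passed. Between aged obese and young lean libraries 5.62% of all genes tested were called higher and 4.65% lower. A list of 13 tested genes often called clock-controlled, such as Wee1 and Nampt, had 3 higher and 1 lower in this comparison. The 3 were Noct, the deadenylase-related nocturnin gene (75.6 ± 37.2 CPM in aged obese and 25.3 ± 8.18 CPM in young lean libraries, log2 fold change 1.58 ± 0.30, adjusted p = 0.00429), Klf10 (1.42 ± 0.45, adjusted p = 0.0408) and Por (0.60 ± 0.18, adjusted p = 0.0329). Tsc22d3, a glucocorticoid-induced gene, was lower (-0.83 ± 0.22, adjusted p = 0.0178). For age in obese mice, where 3.07% of all genes tested were called, the same list had 3 higher and 2 lower. The lower ones were Nampt, the gene of the NAD salvage enzyme (-0.55 ± 0.13, adjusted p = 0.0259), and Leo1 (-0.24 ± 0.07, adjusted p = 0.0467). Of the 11 tested genes of the glucocorticoid list Tsc22d3 was the only one called between aged obese and young lean libraries, and of the 15 proliferation genes 0 were called. Of the 18 immediate early genes 2, Nr4a2 and Nr4a3, were called higher between these groups, and 0 lower. Of all genes tested 10.3% were called in this comparison, 5.62% as higher, so the count of calls says nothing particular about the list. The log2 fold change was positive for 17 of the 18 and for 48.8% of all genes tested. The median of the 18 was 0.73, against -0.01 over all genes tested.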

How the data were processed

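The table the authors deposited gives each Ensembl mouse gene an unnormalized read count per library. HTSeq 0.7.0, DESeq2 1.12.4 and STAR are the tools named in the submitters' processing notes. Genome build, annotation release and strand setting are not given in the sources used here. Reads of overlapping or antisense genes can therefore not be told apart. The 5 lines that name no gene were left out. They include reads in no gene (3.94% to 8.75% of a library) and ambiguous reads (2.69% to 3.41%). Symbols were matched for 36639 of 38561 identifiers. Groups and mouse numbers came from the sample titles, and no batch is named in the labels. After filterByExpr by group and TMM scaling, edgeR 4.0.16 under R 4.3.3 fitted 1 quasi-likelihood model over all 30 libraries, with the 4 groups as terms. Benjamini-Hochberg adjustment ran over 14438 genes and calls were made below 0.05. Log2 CPM used a prior count of 2. The scripts were tested on simulated data. Alternatives used DESeq2 1.42.0, limma 3.58.1 with voom, other scalings and filters, and libraries left out. Named genes were the members, called genes of fixed lists (at most 4 per list), other clock genes averaging 1 CPM or more, and for each member up to 3 most alike genes, 1 of which is not reported here. Cell type markers and sums of lists were chosen alike, and library patterns were described after their values were seen. The members and lists were chosen with earlier results of these data known. P-values measure the spread between mice with 1 culture each.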

Additional observations from a re-analysis of the deposited data

Results flagged for a closer look

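In aged lean 16, Cry1 was at 14.7 CPM. It lay far above the other 7 aged lean libraries, of which the next highest was at 9.09 CPM, and above the group's median of 6.71 CPM. The gap to the nearest library was 0.585 of the range of the group. This was 1 of 40 groups of values examined in this way (10 members in 4 groups), and chance flags about 1 in 20 such groups. The same library had 72.5 CPM of Arntl and 24 CPM of Per2.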

How the results depend on the processing

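Counts of called members and of the rest of the clock were recomputed under other scalings, tests, filters and sets of libraries. Of the uncalled member values recomputed, 98 of 2305 had the other sign, and these were not counted as reversals. The members called between aged obese and young lean libraries were 6, and 3 to 6 when 1 library was left out (3 without aged obese 15), 1 without aged obese 15 and 17 and aged lean 16 (a set chosen after seeing the data) and 0 on the 16 libraries that share a mouse number. For age in obese mice 3.07% of all genes tested were called in the main fit and 4.46% without young obese 1 and 2. That share was 0.608% without aged obese 15 and 17 and aged lean 16. It was 2.16% without aged obese 14 and aged lean 11 and 15. The count of members called for age in obese mice was 2, with 0 to 4 when 1 library was left out. It was 7 by voom, 0 without a filter, 0 when only the 2 groups were fitted, 4 without young obese 1 and 2, 6 without aged obese 10 and 12, 0 without aged lean 16 and aged obese 15, 0 without aged obese 15 and 17 and aged lean 16, 1 without aged obese 14 and aged lean 11 and 15, and 0 on the 16 libraries. For obesity in young mice the count of 0 became 2 by voom, 1 with the GC and length offset and 1 when only the 2 groups were fitted. For obesity in aged mice it became 1 by voom and was 0 to 1 with 1 library left out (1 without aged lean 16). No member was called for age in lean mice or the interaction under any alternative run. The cause of these shifts was not tested, and no fit separated a smaller number of libraries from the choice of libraries left out. Where the share of all genes called in a fit is not given, its count says nothing particular about the members or the rest of the clock.

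For the rest of the clock, the 3 genes called between aged obese and young lean libraries became 5 with DESeq2 size factors, 1 with upper-quartile scaling, 6 by DESeq2, 1 by voom, 5 with the stricter filter, 5 with the GC and length offset and 0 when only the 2 groups were fitted. They became 5 without young obese 1 and 2, 6 without aged obese 10 and 12, 1 without aged lean 16 and aged obese 15, 0 without aged obese 15 and 17 and aged lean 16, and 0 to 7 with 1 library left out. For obesity in young mice the count of 1 became 2 with upper-quartile scaling, 5 by DESeq2, 5 by voom, 2 with the stricter filter, 4 with only the 2 groups, 0 without young obese 1 and 2, 3 without aged obese 10 and 12, 2 without aged lean 16 and aged obese 15, 2 without each of the other 2 sets, and 1 to 4 with 1 library left out. For age in obese mice the count of 0 became 1 with DESeq2 size factors, upper-quartile scaling, DESeq2, the stricter filter or the GC and length offset, 6 by voom, 5 without aged obese 10 and 12, and 0 to 2 with 1 library left out. The 27 correlated pairs became 28 with DESeq2 size factors and 24 to 30 with 1 library left out.

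Mouse numbers are shared by 16 libraries of different mice, so they share a number only. The correlation of same-numbered libraries ran from -0.517 to 0.39 over 8 pairs. With the replicate block on these 16 libraries, and also on the same libraries without it, 0 members were called for age in obese mice or between aged obese and young lean libraries, and 0 of the rest of the clock for obesity in young mice or between aged obese and young lean libraries. The sign turned with the block for Nr1d1 (-0.10), Nr1d2 (-0.14) and Bhlhe41 (-0.67) between aged obese and young lean libraries. It also turned for Nr1d2 (-0.22) and Bhlhe41 (-0.59) for age in obese mice. No number was shared by an aged obese and a young library, and the only young lean libraries among the 16 were young lean 1 and 23. With the block these changes were estimated only by way of other groups, so the turned signs are not read as reversals. The lowest count of a member in any library was 61 (Bhlhe41), and depth was not tested as a limit.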
